A study of Mus musculus with 3 samples.

Results

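The cone opsins of the mouse, *Opn1sw* (short wavelength) and *Opn1mw* (medium wavelength), were followed through every annotated cell type of a developing retina series. They were taken by name, not by their values, and are 2 of the 19946 genes in the deposited count tables. *Opn1sw* had a row in the tables of all 3 libraries, whereas *Opn1mw* had a row in the P14 table alone and was not analysed in the other libraries. Each library was a MULTI-seq pool, in which a lipid-anchored barcode gives the sample of each cell, and transcripts were counted as unique molecular identifiers (UMIs). The study asked how Sstr2, a somatostatin receptor, acts on retinal neurogenesis. The explant library held wild-type CD1 retinas taken at E14 and cultured for 6 days with an Sstr2 agonist at 0, 5, 50 or 500 nM, with 2 samples at each concentration. The P0 and P14 libraries each held untreated C57BL/6 / CD1 littermates, 1 Sstr2 +/+, 2 Sstr2 +/- and 2 Sstr2 -/-, from a line with a targeted deletion that was crossed to CD1. The samples are called explants and retinas below, but the labels do not state how many eyes each pooled, so a p-value may measure technical spread only.

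Cone opsins are the light-sensing receptors of cones and activate a cone-specific transducin. Most mouse cones can make both, in amounts that change with position: ventral cones are rich in *Opn1sw* and dorsal cones in *Opn1mw*. *Opn1sw* is transcribed first, in newborn cones, and *Opn1mw* later, after thyroid hormone signalling through the receptor *Thrb* has begun.

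In GRCm38 (GENCODE M21), *Opn1sw* lies at chr6:29376671-29388468 on the minus strand, with 2 transcripts. The transcript like that of RefSeq, chr6:29376671-29380513, has 5 exons, and its start is the start site used below. The last bases of *Opn1sw* overlap the 3′ end of *Calu* (chr6:29348069-29377110, plus strand). *Ccdc136* (chr6:29396309-29426994, plus strand) begins 7841 bases from the far end of the GENCODE interval. *Opn1mw* lies at chrX:74127464-74150760 on the plus strand, has 6 exons and overlaps a gene of the opposite strand at its start. Whether counting used strand is not given in the sources used here. The 250 bases before each start site are shown because both genes were read from the same cones (RefSeq, GRCm38.p6, chr6:29380514-29380763 and chrX:74127216-74127465, in the direction of transcription).
Opn1sw: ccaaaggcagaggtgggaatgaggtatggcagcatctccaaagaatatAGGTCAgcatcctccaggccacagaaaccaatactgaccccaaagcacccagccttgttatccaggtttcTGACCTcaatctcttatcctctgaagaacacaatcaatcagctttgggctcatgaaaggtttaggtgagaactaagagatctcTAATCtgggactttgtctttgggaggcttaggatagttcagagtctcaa
Opn1mw: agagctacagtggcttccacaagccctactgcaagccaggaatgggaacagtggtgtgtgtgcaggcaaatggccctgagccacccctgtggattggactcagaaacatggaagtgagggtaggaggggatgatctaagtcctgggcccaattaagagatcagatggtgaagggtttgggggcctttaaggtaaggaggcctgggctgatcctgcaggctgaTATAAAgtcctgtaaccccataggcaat
Capitals mark matches, on either strand, to a homeodomain core (TAATC), a nuclear receptor half-site (AGGTCA, or TGACCT on the opposite strand) and a TATA box (TATAAA), which do not overlap. *Opn1sw* held 1 homeodomain core and 2 half-sites, and *Opn1mw* held 1 TATA box, 28 bases before its start. Windows of this length held these letters in 19.8%, 14.0% and 12.4% of 32851 promoters, so the matches are descriptions of sequence only.

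The 3 libraries held 5607 explant, 5706 P0 and 3298 P14 cells. Summed over cells, a sample had 1281682 to 4237324 UMIs in the explant library, 8822880 to 10793649 at P0 and 1266730 to 5886669 at P14. Pairs of libraries had 4, 7 and 9 cell barcodes in common. The targeted gene, *Sstr2*, was counted at P0 at 14.1 per 1000000 UMIs of the summed cells (CPM) in the +/+ retina, 22.3 and 33.5 in the +/- retinas and 41.0 and 43.3 in the -/- retinas. These 3′ counts did not fall with the deletion, whose position is not given in the sources used here, so they do not check the genotype labels and genotypes below are as labelled. *Xist*, the RNA of the inactive X chromosome, was at 1903 CPM in the second +/- retina at P14 and between 3.23 and 12.9 in the other 4. At P0 it was at 1483 in the first +/- and 1488 in the second -/- retina and at most 6.01 in the others, and *Opn1mw* is X-linked. All 8 explants held it, at 1198 to 2684 CPM.

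At P14 both opsins were counted mostly in annotated cones. The authors named cell types from marker genes of clusters of these same cells, so levels by cell type are descriptions. The 115 annotated cones were 3.49% of cells and held 5337 of 5792 *Opn1sw* UMIs (92.1%) and 3824 of 4016 *Opn1mw* UMIs (95.2%). Levels are in CPM. A 3′ UMI stands for a molecule whatever the transcript length, so levels can be set side by side between genes, although capture was not measured. All 8 cone markers were detected, with a summed level of 10916 to 17669 CPM in cones, 1159 to 1458 in bipolar cells and 155 to 210 in rods. The 8 rod markers summed to 16642 to 25404 CPM in the same cones and to 45441 to 49779 in rods.

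*Opn1sw* stood in cones at 4457 CPM in the +/+ retina, 3858 and 2699 in the +/- retinas and 5738 and 3641 in the -/- retinas. *Opn1mw* stood at 2563 in the +/+ retina, 3268 and 5262 in the +/- retinas and 3177 and 3387 in the -/- retinas. The order of the opsins was therefore not the same everywhere: *Opn1sw* was the higher in 4 retinas and *Opn1mw* in the second +/- retina, the 1 with high *Xist*, which gave 11 cones. The mean level over retinas was 4079 ± 1123 (SD, n = 5) for *Opn1sw* and 3531 ± 1019 for *Opn1mw*.

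Every other cell type held far less. *Opn1sw* averaged 47.9 CPM in bipolar cells, 21.8 in rods, 13.8 in Müller glia and 2.91 in amacrine cells. *Opn1mw* averaged 17.2 in amacrine cells, 13.3 in bipolar cells, 12.5 in rods and 8.98 in Müller glia, and the first of these rested on 3 UMIs in 68 cells. For both opsins the lowest cone level lay above the highest level of any other type, whereas each later pair of neighbours in the order overlapped across retinas.

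**Figure D1:**
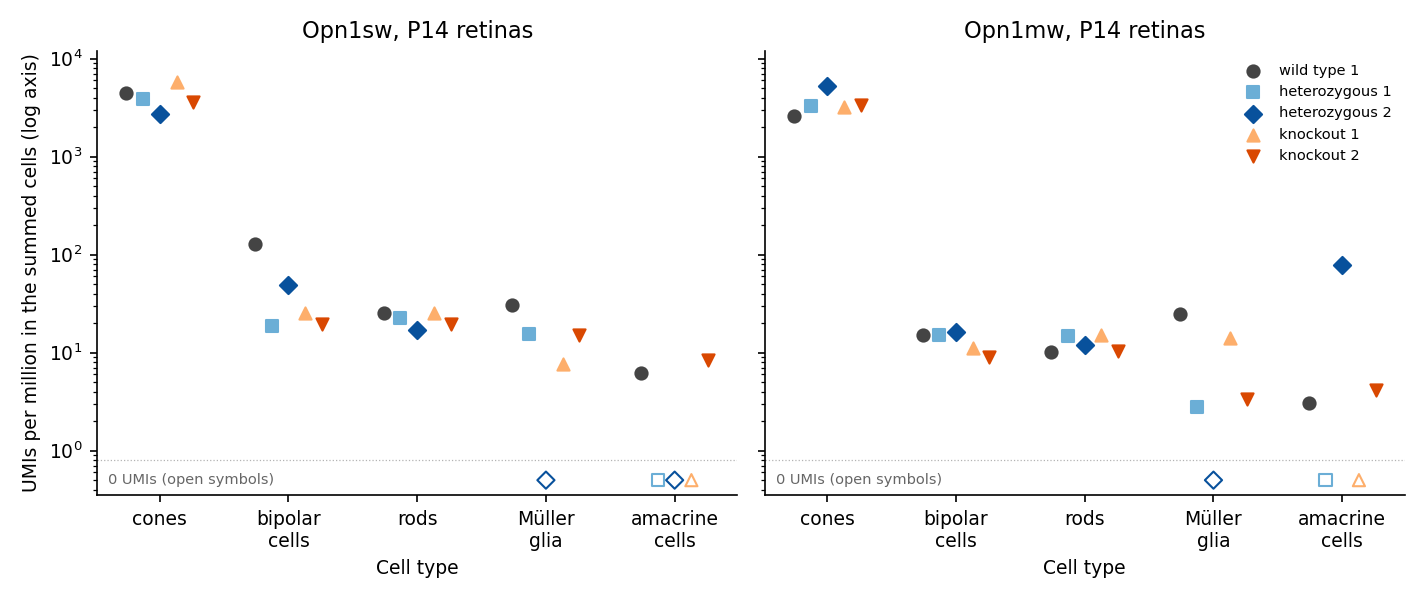
*Opn1sw* (left) and *Opn1mw* (right) in each P14 cell type, as CPM on a log axis, with 1 symbol per retina and open symbols for sums with 0 UMIs. Cones lie between 2563 and 5738, and the highest other value is 128 for *Opn1sw* in bipolar cells of the +/+ retina.

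Opsin UMIs outside cones were few. They were spread thinly in rods, whereas in bipolar cells and Müller glia many lay in single cells. With each cell drawn down to 2000 UMIs, *Opn1sw* was found in 72.4% of cones and *Opn1mw* in 86.1%, against 3.41% and 2.52% of rods, 5.42% and 2.47% of bipolar cells and 2.38% and 1.61% of Müller glia (means over retinas). Unthinned, 248 of 2271 rods held a cone opsin UMI, 224 of them a single one, at a median depth of 3374 UMIs against 10245 in cones. Where the opsin UMIs outside cones came from was not tested. Over all retinas, each UMI of cone arrestin (*Arr3*) stood beside 2.71 *Opn1sw* and 1.94 *Opn1mw* UMIs in cones. The ratios were 1.37 and 0.741 in rods, 2.08 and 0.438 in bipolar cells and 1.78 and 1.27 in Müller glia. Those of bipolar cells and Müller glia rested in large part on the single cells given next. For *Opn1sw* the bipolar ratio was 2.89 in the +/+ retina and 0.667 to 2.25 in the others. The wild-type bipolar *Opn1sw* level rested on 1 cell with 114 of the 200 bipolar *Opn1sw* UMIs, 32 UMIs of the cone transducin *Gnat2* and 18642 UMIs in all. In Müller glia, 1 cell of the +/+ retina held 32 of 66 *Opn1sw* and 23 of 47 *Opn1mw* UMIs, with 46713 UMIs in all. Both cells were in the top 5% of doublet scores. Of 9 cells outside the cones with over 3 UMIs of an opsin, 7 came from the +/+ retina.

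Transcripts of the rod list were found in every other type. The 16 genes of the rod list, such as rod arrestin *Sag*, phosducin *Pdc* and the rod transcription factor *Nrl*, had a median of 28.8% of their rod level in cones, 10.1% in bipolar cells, 5.96% in Müller glia and 3.97% in amacrine cells. In bipolar cells the 16 ratios lay within 6.24% to 14.6%. In cones they ran from 19.0% for *Cnga1*, a rod channel subunit, to 62.2% for *Rcvrn*, which cones also make. *Sag* stood at 51.4%, *Gngt1* at 49.9% and *Pdc* at 46.7% of the rod level in cones, and *Nrl* at 22.4%. How much of these levels the cones made themselves was not tested. With cells drawn to 2000 UMIs, the median rod list gene was found in 73.1% of cones, 33.4% of bipolar cells, 25.2% of Müller glia and 27.5% of amacrine cells, against 99.8% of rods.

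At the level seen in rods, a cone of median depth would hold 0.173 to 0.321 *Opn1sw* and 0.101 to 0.144 *Opn1mw* UMIs, depending on the retina. The median cone held 25 and 34. The *Opn1mw* share of cone opsin UMIs in rods was 28.7% to 41.7% across retinas and 35.1% over all of them (95% exact interval 29.6 to 40.9). That of cones ran from 35.6% to 66.1% and was 41.7% over all retinas, and that of Müller glia was 41.6%. The 66.1% was that of the second +/- retina, with 11 cones. In each other retina the cone share lay within the exact interval of its rods. Intervals on shares and limits set by a count of 0 cover counting error only.

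Co-detection was the rule in P14 cones. At least 1 UMI of both opsins was found in 91 of 115 cones (79.1%, 95% exact interval 70.6 to 86.1). *Opn1sw* alone was held by 12, *Opn1mw* alone by 12 and neither by 0, which allows a share of up to 2.61% of annotated cones. The annotation could draw on the opsins themselves, so the 0 is not independent of it. Both were found in 30 of 34 cones of the +/+ retina, 15 of 20 and 6 of 11 in the +/- retinas, and 27 of 34 and 13 of 16 in the -/- retinas. The product of the separate shares was 80.2%. With 89.6% of cones holding each opsin, the share with both could not lie far below that product. As 0 cones held neither, it was the lowest that the separate shares allow, so its closeness to the product does not show independence. The share with both was 64.3% with each cone drawn to 2000 UMIs and 72.2% at a minimum of 2 UMIs. At a minimum of 5, a threshold added after the data were seen, it was 58.3%.

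With 2 retinas against 3, no difference between the -/- and the other retinas could reach a p below 0.1. The mean share with both was 80.3% in the -/- retinas and 72.6% in the other 3, a difference of 7.74 percentage points (two-sided exact permutation test over 5 retinas, p = 0.7). The *Opn1mw* share of cone opsin UMIs was 36.5% in the +/+ retina, 45.9% and 66.1% in the +/- retinas and 35.6% and 48.2% in the -/- retinas. The -/- mean lay 7.58 percentage points lower than that of the others (exact permutation p = 0.7). Both differences turned over without the second +/- retina, to -1.29 and 0.73 points.

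The opsins were mixed in most cones but rarely in equal amounts. Between 10% and 90% of cone opsin UMIs came from *Opn1mw* in 72 cones, under 10% in 19 and over 90% in 24. *Opn1sw* led in 66 cones, *Opn1mw* in 48, and 1 cone had the same number of each. Counts ran from 0 to 199 for *Opn1sw* and from 0 to 122 for *Opn1mw*. Over the 115 cones, which share libraries and differ in depth, Spearman's rho of the 2 levels was -0.23, and over the 96 cones with at least 5000 UMIs it was -0.35.

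**Figure D2:**
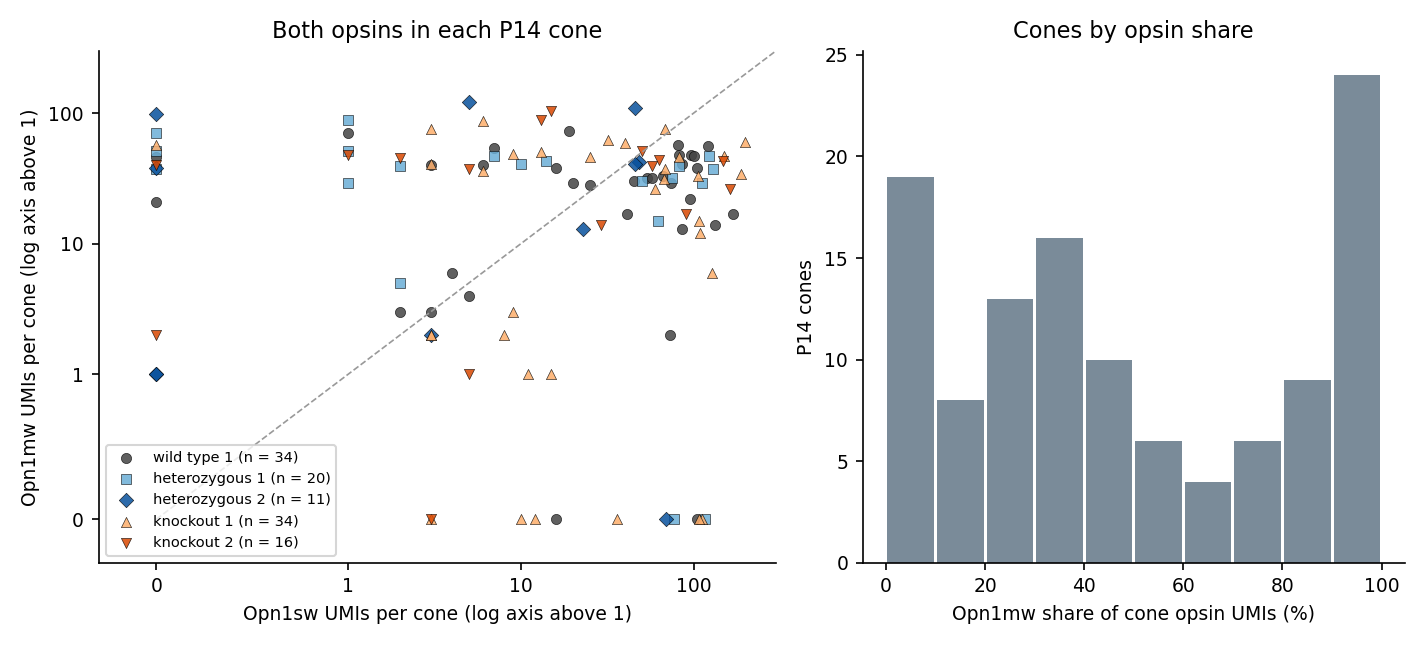
Left, *Opn1sw* against *Opn1mw* UMIs in each of 115 P14 cones, by retina, on axes that are logarithmic above 1, with a dashed line of equal counts. Right, number of cones by the percentage of cone opsin UMIs from *Opn1mw*, with 19 cones in the lowest and 24 in the highest bin.

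The 19 cones with under 5000 UMIs, set apart after the data were seen, had lower opsin levels than the deeper ones. Their *Opn1sw* level was 3010 CPM against 4499 and their *Opn1mw* level 1158 against 3272, and *Gnat2* was 695 against 1613. Cone arrestin, *Arr3*, was at 3064 against 1568. Of the 16 cone list genes, 15 were above their rod level in the shallower cones and 14 in the deeper ones. In the deeper cones *Kcnv2* was at 88.8 CPM against 200 in rods, and *Grk1* at 264 against 357. Without the 19 shallower cones, 80 of 96 cones (83.3%) held both opsins.

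The genes most alike to each opsin were sought among 11773 genes across the 25 sums of retina and cell type. *Opn1sw* was most alike to *Gngt2* (Pearson's r of log2(CPM + 1) 0.956), *Pde6c* (0.955), *Gnat2* (0.946), *Pde6h* (0.939) and *Kcne2* (0.932). *Gngt2* and *Gnat2* encode the gamma and alpha subunits of cone transducin. *Pde6c* and *Pde6h* encode the catalytic and inhibitory subunits of cone phosphodiesterase. *Opn1mw* was most alike to *Eif3b* (0.955), *Gckr* (0.941), *Cnga3*, a cone channel subunit (0.930), *Gm42697* (0.929) and *Pde6c* (0.927). The sums share libraries and the 5 cone sums set most of each coefficient.

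Cones led by *Opn1mw* were then compared with cones led by *Opn1sw* for the genes that had not defined these classes. The retina was a block, and each of 5 retinas gave 6 to 12 cones of the first class and 5 to 23 of the second, with median depths of 9629 to 13259 and 7105 to 13275 UMIs. Of 2637 genes tested with edgeR's quasi-likelihood test, 3 were higher and 6 lower in *Opn1mw*-led cones (0.114% and 0.228%, or 0.341% in all, at a Benjamini-Hochberg adjusted p under 0.05). Without the first -/- retina, 5 genes passed. A class is a range of the opsin ratio, not a cell type.

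*Ccdc136*, the gene that lies next to *Opn1sw*, had the lowest p. It stood at 856 CPM in *Opn1sw*-led and 327 in *Opn1mw*-led cones of the +/+ retina, at 806 and 230 in the first +/- and 1502 and 275 in the second, and at 1435 and 430 in the first -/- and 916 and 437 in the second. The classes did not overlap, and the log2 fold change was -1.65 (SE 0.14, adjusted p = 2.03e-16 by edgeR). *Syndig1l* lay lower in *Opn1mw*-led cones too, at 57.4 to 121 against 187 to 351 CPM without overlap (-1.67, SE 0.24, adjusted p = 4.78e-07 by edgeR). *Vax2os*, an antisense RNA of the ventral homeobox gene *Vax2*, stood at 19.6 to 93.9 against 52.7 to 226, with ranges that overlapped although it was lower in 5 of 5 retinas (-1.62, SE 0.29, adjusted p = 0.00012 by edgeR). *Syndig1l* had 45 against 177 UMIs and *Vax2os* 31 against 123. Both could have passed the count filter through *Opn1sw*-led cones, so their values are descriptions.

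Another 6 genes passed. *Cabp5*, better known from bipolar cells, had a log2 fold change of -1.52 (22 against 84 UMIs, adjusted p = 0.0236 by edgeR). It was tested in only 3 of the 5 fits that left out a retina and was under the count filter in the rest. It missed the threshold in 2 of those 3, without the first +/- or the second -/- retina. *Rtl8a* had a log2 fold change of -1.32 (adjusted p = 0.000202 by edgeR). *Meg3*, a long non-coding RNA outside the rule for named genes, completed the 6 at -0.62 (adjusted p = 0.000919 by edgeR). In the other direction, *Smug1*, a DNA repair glycosylase, rose by 1.69 (78 against 31 UMIs, adjusted p = 0.000457 by edgeR), *Gzmm*, a granzyme, by 1.14 and *Ppa1*, a pyrophosphatase, by 0.90 (both adjusted p = 9.86e-05). Each of these 3 was higher in 5 of 5 retinas and its classes did not overlap. *Smug1* stood at 19.7 to 73.3 CPM in *Opn1sw*-led cones, and *Cabp5* at 0 to 78.5 in *Opn1mw*-led cones. Both could have passed the count filter through the class in which they were high, so their values are descriptions. *Rtl8a*, *Meg3* and *Smug1* missed the threshold without the first -/- retina, and *Meg3* without the first +/- retina too. DESeq2 called *Ccdc136*, *Syndig1l* and *Gzmm* alone among these genes.

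**Figure D3:**
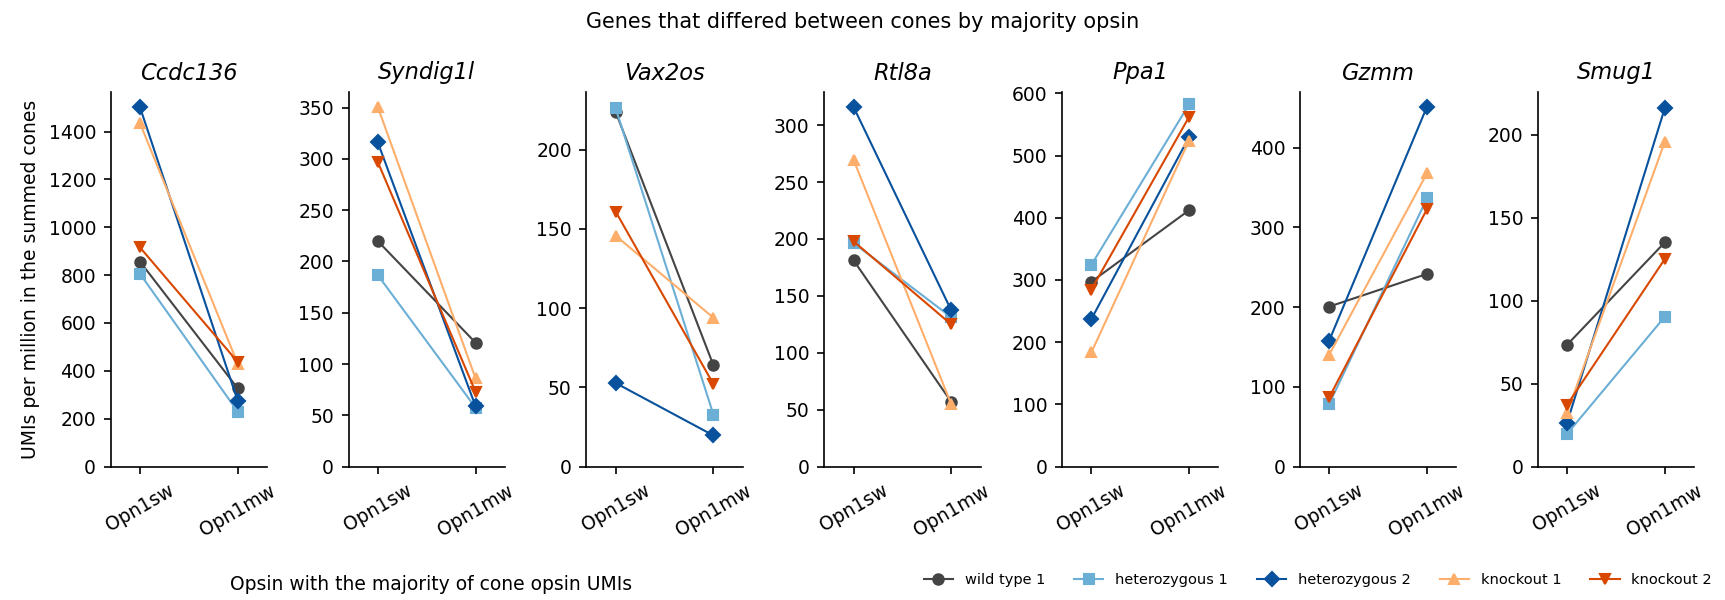
CPM of 7 genes that differed by class, summed over cones led by *Opn1sw* (left of each panel) and by *Opn1mw* (right), with 1 line per P14 retina. *Ccdc136*, *Syndig1l*, *Vax2os* and *Rtl8a* are lower and *Ppa1*, *Gzmm* and *Smug1* higher on the right in all 5 retinas. *Syndig1l*, *Vax2os* and *Smug1* could have passed the count filter through the class in which they were high.

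Of 14 tested cone list genes, 0 rose and 1 (*Ccdc136*) fell, where 0.228% of all genes fell, with a median log2 fold change of -0.15 against 0.00 over all genes tested. *Gnat2* was lower in 5 of 5 retinas, at 1215 to 1624 against 1607 to 1968 CPM, with an adjusted p of 0.0636 by edgeR. *Grk1*, the photoreceptor opsin kinase, was also lower in 5 of 5 retinas, at 157 to 263 against 285 to 346 CPM without overlap (adjusted p = 0.710 by edgeR). *Guca1a* and *Cnga3* were lower in 5 of 5 too, with ranges that overlapped and adjusted p of 0.204 and 0.841 by edgeR. The direction was not particular to the cone list, as *Sag*, *Gngt1* and *Rcvrn* of the rod list were also lower in 5 of 5 retinas. How many of all tested genes were lower in 5 of 5, or did not overlap, was not counted, so these directions are descriptions. *Thrb*, the thyroid hormone receptor, had a log2 fold change of 0.16 (SE 0.14, adjusted p = 0.893 by edgeR). Of 9 tested regulators none passed, and *Nr2f2*, a dorsal nuclear receptor, was under the count filter, with 24 UMIs in *Opn1mw*-led and 4 in *Opn1sw*-led cones.

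Before cones were annotated apart, *Opn1sw* marked a small group of photoreceptors. At P0 photoreceptors held it at 226 ± 85.2 CPM (SD, n = 5) and the other types at 2.19 or less on average. In explants photoreceptors held it at 414 ± 151 (n = 8) and the next type, neurogenic progenitors, at 19.4, a mean that rested on 22 UMIs in 2 cells of 1 explant. In both libraries the lowest photoreceptor sum lay above the highest sum of any other type. Photoreceptors with at least 5 *Opn1sw* UMIs were 104 of 1142 at P0 (9.11%) and 152 of 1662 in explants (9.15%), and held 86.5% and 77.3% of the photoreceptors' *Opn1sw* UMIs.

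Photoreceptors with an *Opn1sw* UMI had higher levels of the tested cone genes. Positive cells numbered 234 of 1142 at P0 and 418 of 1662 in explants, compared with the negative cells of the same retina or explant by edgeR with the sample as a block. This comparison was added after the data were seen, and detection rests on depth too: the median positive cell held 3863 to 8109 UMIs across P0 retinas and the median negative cell 4050 to 5167, whereas in explants the ranges were 2442 to 2720 and 2461 to 2923. Of the 16 cone list genes, 12 passed the count filter at P0 and rose, where 9.13% of 8336 genes did and 8.12% fell (17.3% in all). In explants 12 passed the filter and rose, where 4.45% of 5800 genes did and 4.76% fell (9.21% in all). A listed gene that is scarce in negative cells could pass the filter through the positive cells, as *Guca1a* did with 139 against 8 UMIs at P0. So could *Pde6h* (530 against 55), *Pde6c* (95 against 20), *Cnga3* (60 against 13) and *Sall3* (164 against 37) at P0. In explants *Cnga3* (34 against 19) and *Sall3* (74 against 66) could too. The counts of rises among genes that passed the filter are therefore descriptions. With no filter, 14 of 16 rose at P0 and 13 of 16 in explants, and 0 fell in either. The median log2 fold change of all 16 was then 3.13 and 1.02, against 3.17 and 1.35 for those that passed the filter. *Opn1sw* itself set the classes and was not tested.

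The tested phototransduction genes of the cone list had log2 fold changes from 1.28 (*Gngt2*) to 5.63 (*Guca1a*) at P0. *Guca1a*, a guanylate cyclase activator, stood at 66.2 to 91.8 CPM in positive and 0 to 2.92 in negative cells (5.63, SE 0.35). As it passed the count filter at P0 through the positive cells, this value is a description only, as are those of the scarce genes named above. *Pde6h* stood at 158 to 522 against 2.90 to 17.5 (4.87, SE 0.26) and *Gnat2* at 232 to 328 against 14.3 to 37.9 (3.45, SE 0.17), without overlap. In explants *Guca1a* was 19.2 to 297 against 17.9 to 48.7 (2.32, SE 0.17, adjusted p = 3.18e-26 by edgeR) and *Gnat2* 268 to 469 against 133 to 235 (1.01, SE 0.10). *Pde6h* was nearly absent from explant photoreceptors, with 5 UMIs in 1662 cells against 585 in 1142 cells at P0, and was not tested there.

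Of the 17 listed regulators, 16 were tested in each library. At P0 5 rose and 6 fell, where 9.13% and 8.12% of all genes did. In explants 5 rose and 4 fell, where 4.45% and 4.76% of all genes did. *Thrb*, *Rxrg* and *Sall3*, which rose in both libraries, are in the cone list too, and *Nrl* and *Nr2e3* are in the rod list too. *Thrb* was 240 to 347 CPM in positive and 15.5 to 47.6 in negative cells at P0 (2.90, SE 0.15), and its log2 fold change in explants was 1.01 (SE 0.12). *Rxrg*, a retinoid receptor of cones, rose by 2.43 and 1.51, and *Sall3*, a zinc finger factor of cones, by 3.78 and 1.61. *Sall3* was scarce in negative cells, at 2.39 to 8.03 CPM at P0 and 4.98 to 27.1 in explants, so its values are descriptions. *Ccdc136* rose by 2.27 (SE 0.08) and 1.77 (SE 0.06), without overlap in either library. Of the genes called between the cone classes, *Syndig1l* rose by 3.41 and 2.21 and *Cabp5* by 2.91 and 0.94. In negative cells *Syndig1l* stood at 2.39 to 14.6 CPM at P0 and 4.05 to 27.4 in explants, and *Cabp5* at 1.20 to 10.9 at P0. There both could have passed the filter through the positive cells, so those values are descriptions. *Vax2os* rose by 1.08 in explants alone and had a log2 fold change of 0.17 at P0, higher in 3 of 5 retinas. *Smug1*, which was higher in *Opn1mw*-led cones, rose by 1.06 in *Opn1sw*-positive cells at P0, without overlap. *Smug1* too was scarce in negative cells at P0, at 6.38 to 15.1 CPM, so this value is a description. In explants *Smug1* was lower in positive cells of 6 of 8, at a median of 9.64 against 19.4 CPM, with ranges that overlapped. *Gzmm* was under the count filter, with 13 UMIs in positive and 20 in negative cells at P0, and was higher in positive cells of 5 of 5 retinas. *Rtl8a* and *Ppa1* passed in neither library.

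Rod and precursor genes gave a mixed picture. *Neurod4*, a factor of early precursors, fell by 1.85 at P0 and by 1.38 in explants, and *Rorb*, an early photoreceptor nuclear receptor, fell by 0.74 and by 0.50. *Nrl* fell by 0.52 at P0 (adjusted p = 0.001 by edgeR) and had a log2 fold change of -0.02 in explants (adjusted p = 0.959). *Crx*, which drives both photoreceptor types, did not pass in either (0.09 and 0.02). Of the rod list, 5 genes rose and 4 fell of 13 tested at P0, where 9.13% and 8.12% of all genes did. In explants 7 rose and 0 fell of 10 tested, where 4.45% and 4.76% of all genes did. *Rcvrn* (3.71) and *Pde6g* (1.52) led the rises at P0.

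**Figure D4:**
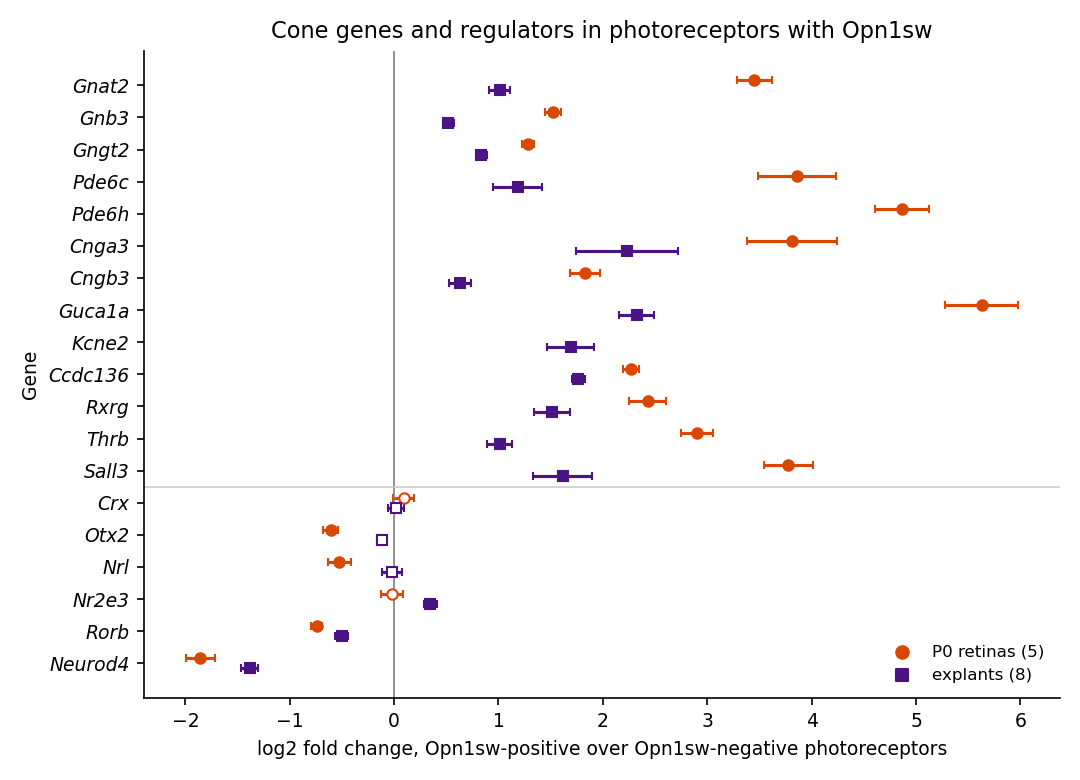
log2 fold change of cone list genes (above the grey line) and photoreceptor regulators (below it) between *Opn1sw*-positive and *Opn1sw*-negative photoreceptors, in 5 P0 retinas (circles) and 8 explants (squares), with bars of 1 SE and open symbols where the adjusted p was 0.05 or more. The tested cone list genes lie right of 0 in both libraries, from 0.52 for *Gnb3* in explants to 5.63 for *Guca1a* at P0. *Guca1a* passed the count filter at P0 through the positive cells, and *Pde6h*, *Pde6c*, *Cnga3* and *Sall3* could have done so too.

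*Opn1sw* was lowest in the +/- retinas at P0, and no genotype contrast passed the threshold. In P0 photoreceptors it stood at 254 CPM in the +/+ retina, 113 and 178 in the +/- retinas and 249 and 338 in the -/- retinas. The +/- retinas lay below the others without overlap, and the +/+ value lay within the range of the -/- retinas. How many of all genes separated in this way was not counted, so the order is a description. Median photoreceptor depth was 5167 and 5198.5 UMIs in the +/- retinas, 4587.5 in the +/+ and 4518.5 and 4035 in the -/- retinas. The part this had in the levels was not tested. Knockout against heterozygous, the log2 fold change was 1.04 (SE 0.18, adjusted p = 0.0797 by edgeR, where 0.0197% of 10129 genes rose and 0.0395% fell, 0.0592% in all). Without the filter on low counts *Opn1sw* passed (adjusted p = 4.71e-14 by edgeR), but this setting called far more genes, as given below. With all retinas and the filter, DESeq2 gave an adjusted p of 0.823. The log2 fold change was 0.74 without the first +/- retina and 1.22 without the first -/- retina. Against the +/+ retina the log2 fold change was 0.21 (SE 0.22, adjusted p = 0.982 by edgeR, where 0 genes rose and 0.00987% fell).

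The share of photoreceptors with an *Opn1sw* UMI at P0 was 22.8% in the +/+ retina, 15.1% and 20.7% in the +/- retinas and 21.9% and 22.8% in the -/- retinas. The share with at least 5 was 8.93%, 5.56% and 8.68%, and 10.7% and 12.2%. Against the +/+ retina 10 of 14 tested cone list genes had a positive and 4 a negative log2 fold change (median 0.12), and 0 passed. Knockout against heterozygous, all 14 had a positive one, where 4995 of 10129 genes did (median 0.36, against 0.00 over all genes). These genes were read from the same sums and are not independent. In that contrast 14 of 16 regulators (median 0.22) and 7 of 13 rod list genes (median 0.02) were positive. Against the +/+ retina 12 of 13 rod list genes were (median 0.32). Of the 14 cone list genes, 1 passed in knockout against heterozygous, where 0.0197% of all genes rose. That gene was *Gngt2*, at 1362 and 1412 in the +/- and 2194 and 2891 CPM in the -/- retinas (0.88, SE 0.11, adjusted p = 0.00856 by edgeR), and it missed the threshold without the second +/- retina. Of the retinas compared, the first +/- and the second -/- had high *Xist*, and the part this had in the values was not tested.

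**Figure D5:**
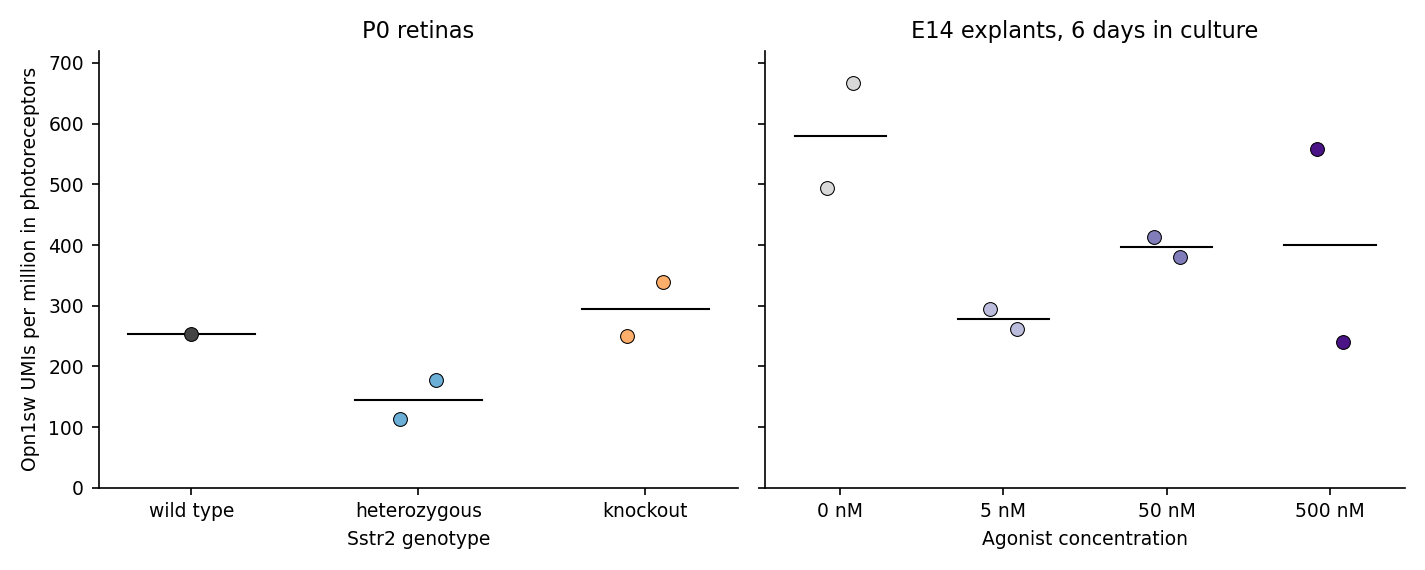
*Opn1sw* CPM in photoreceptors of P0 retinas by genotype (left) and of explants by agonist concentration (right), with 1 point per sample and a line at the mean. The +/- retinas lie lowest at P0, at 113 and 178, and the 500 nM explants lie apart from each other, at 240 and 558.

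In P14 cones neither opsin passed. Knockout against heterozygous, the log2 fold change was 0.52 for *Opn1sw* (SE 0.16, adjusted p = 0.422) and -0.35 for *Opn1mw* (SE 0.16, adjusted p = 0.999 by edgeR), where 0.0196% of 5093 genes rose and 0.0589% fell (0.0785% in all). The ranges of *Opn1sw* overlapped, and those of *Opn1mw* did too. Against the +/+ retina the values were 0.07 (SE 0.20) and 0.35 (SE 0.20), both at an adjusted p of 1 by edgeR, where 0.157% rose and 0.255% fell (0.412% in all). Without the first +/- retina, *Opn1sw* passed in knockout against heterozygous at 0.83. Against the +/+ retina *Opn1sw* turned to -0.33 without the first -/- retina. Knockout against heterozygous, 0 of 16 rod list genes passed, with 7 positive and 9 negative log2 fold changes (median -0.01, as over all genes). *Pde6h* stood at 1864 CPM in the +/+ retina, 6012 and 3744 in the +/- and 5182 and 6005 in the -/- retinas. Against the single +/+ retina all 16 rod list genes had a negative log2 fold change (median -0.67, against 0.01 over all genes). In that contrast *Pde6h* (1.57) and *Gngt2* (0.74) rose and 5 of 16 rod list genes fell. Each of these calls was lost without either -/- retina, when edgeR passed 0 of 4386 or 5322 genes, with 92 or 70 under 0.05 before adjustment.

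In explant photoreceptors the agonist gave no ordered response of *Opn1sw*. It stood at 494 and 666 CPM at 0 nM, 294 and 262 at 5 nM, 413 and 381 at 50 nM and 558 and 240 at 500 nM. The 0 nM explants lay above the 5 and 50 nM explants, and the 500 nM explants spanned them all but the higher 0 nM value. At 500 against 0 nM the log2 fold change was -0.44 (SE 0.15, adjusted p = 0.635 by edgeR, where 0.0403% of 7440 genes rose and 0.0538% fell, 0.0941% in all). Without the first 500 nM explant it passed at -1.20, and without the second it was -0.00038. The share of positive photoreceptors was 24.3% and 26.1% at 0 nM and 33.5% and 21.7% at 500 nM. Of 11 tested cone list genes 1 rose, *Gngt2*, at 1306 and 1520 against 2302 and 2019 CPM (0.64, SE 0.14, adjusted p = 0.0204 by edgeR), and 0 fell. It missed the threshold without the first explant of either concentration. *Gngt2* also stood at 2331 in the first explant at 5 nM. These 3 explants were the ones with the highest *Xist*, at 2505 to 2684 CPM against 1198 to 1360 in the other 5, and the part this had in the *Gngt2* values was not tested.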

How the data were processed

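Retinal cells were profiled with 10x 3′ v3.0 chemistry and MULTI-seq sample barcodes. The authors deposited UMI count matrices without normalization, made with Cell Ranger 3.1.0 on mm10 according to the submitters' processing notes, and SCT values from Seurat 3, which are the natural log of 1 plus a corrected count. Cells, samples and cell types were taken from the authors' deposited cell tables, after their filters. Median depth per cell was 3925 to 4317 UMIs in explants, 7259 to 8541 at P0 and 3381 to 3730 at P14, which sets the counting error.

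For each sample, the counts of a cell type were added up and then tested with edgeR 4.0.16 (quasi-likelihood, TMM, filterByExpr, Benjamini-Hochberg adjusted p under 0.05) in R 4.3.3, all groups of a library sharing the dispersion. The SE given with an edgeR log2 fold change is its size divided by the square root of the quasi-likelihood F. That F uses variance shared across genes, so the SE can be smaller than the spread of the samples. Classes of cells within a sample were compared with the sample as a block, which pairs sums of the same retina or explant. Cones counted as led by the opsin with more UMIs. Single values were compared by exact permutation in scipy 1.17.1, intervals are exact binomial at 95%, and a count of 0 was given the limit of 3 counts. Sums, shares and thinning to 2000 UMIs, with shallower cells left out, were computed in Python 3.11.15 with numpy 2.4.6 and pandas 2.3.3. Doublet scores came from Scrublet in scanpy 1.11.5, which called 89 explant, 6 P0 and 2 P14 cells. No cell was removed in the values given first. The model fits were tested on simulated data with known changes.

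Named genes were both opsins, other opsins, a cone list of 16 genes, a rod list of 16, 17 regulators, the 5 genes most alike to each opsin among those with at least 50 UMIs, and at most 5 rises and 5 falls between classes of cone. Members and lists were chosen with earlier results of these data known. Alternatives were DESeq2 1.42.0, its size factors, no count filter, SCT values, thinning, other detection minimums, no top 5% of doublet scores and leaving out each sample. The rod opsin is not reported here.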

Additional observations from a re-analysis of the deposited data

How the results depend on the processing

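Of 296 alternatives that left out no sample, 73 of those on main results stayed on their side of the threshold or within the spread, 12 moved and 1 passed, and of those on single named genes 199 stayed, 2 passed and 9 missed the threshold. The cause was not tested. With DESeq2, calls numbered 1 (P14 knockout against heterozygous), 2 (P14 against wild type), 0 (explants at 500 nM, 34 at an unadjusted p under 0.05, against 7 by edgeR), 3 (cone classes), 718 (P0 *Opn1sw* classes) and 273 (explant *Opn1sw* classes). With no filter they numbered 120 and 34 at P0 and 12 in explants, and *Opn1sw* in P0 knockout against heterozygous passed at 1.02. The mean share of cones with both opsins was 61.5% thinned and 56.3% at 5 UMIs, and *Opn1sw* in cones was 5497 from SCT values.

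Leaving out each sample gave 0 to 18 and 0 to 27 calls in the P14 contrasts (0 without either knockout, with 87 and 80, then 92 and 70, at an unadjusted p under 0.05 by edgeR), 5 to 88 and 1 to 27 at P0, 4 to 22 in explants, 5 to 11 between cone classes, 1094 to 1283 between P0 and 411 to 510 between explant *Opn1sw* classes. *Opn1sw* ran from 0.12 to 0.83 and from -0.33 to 0.37 at P14, from 0.74 to 1.39 and from -0.020 to 0.40 at P0, and from -1.20 to -0.00038 in explants. *Opn1mw* ran from -0.66 to -0.0046 and from 0.32 to 0.36. *Nrl* in explants ran from -0.082 to 0.066, and its reversed values were 0.066, 0.015 and 0.020. The knockout difference in co-detection ran from -1.29 to 15.6 points and in *Opn1mw* share from -14.1 to 0.73 points, over means of 72.6% to 81.0% and 41.5% to 49.2%. A lone sample in an arm was assumed to vary like the other groups.

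No paired analysis was possible because the deposited cell tables give samples of different genotypes or concentrations no shared replicate numbers. Without the replicate block, calls between cone classes numbered 7, between P0 *Opn1sw* classes 1121 and between explant ones 447, and *Meg3* missed the threshold. The cone results rest on 115 cones, 5 to 23 in each class and retina, and the contrasts with wild type on a single wild-type retina.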

Other observations

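Other opsins were counted at low levels. *Rrh*, the peropsin gene, stood at 199 ± 42.8 CPM (SD, n = 5, 638 UMIs) in P14 Müller glia and at 56.2 ± 8.53 CPM (n = 5, 1501 UMIs) in P0 progenitors. *Rgr*, a retinal G protein-coupled receptor that binds all-trans retinal, was found in photoreceptors at 17.8 ± 7.10 CPM (n = 8, 87 UMIs) in explants and at 5.02 CPM (40 UMIs) at P0. *Opn4*, the melanopsin of intrinsically photosensitive ganglion cells, was counted with 10 UMIs in 5 ganglion cells at P0. *Opn3*, encephalopsin, was highest on average in ganglion cells at P0, at 6.37 CPM (15 UMIs) against 3.96 CPM in progenitors (107 UMIs), and in neurogenic progenitors in explants, at 7.81 CPM against 6.00 CPM in progenitors. These values are descriptions, and differences between libraries were not tested.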
